A study of Mus musculus with 21 samples.

Results

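Connexins are the proteins that build gap junctions, channels that join the cytoplasm of neighbouring cells. The vessel wall uses a small set of them, and 4 genes were followed: Gja1 (connexin 43), Gja4 (connexin 37), Gja5 (connexin 40) and Gjc1 (connexin 45). They were chosen by name as the vascular connexins, and all 4 were found among 24206 gene names in the authors' table of RPKM, the reads per kilobase of gene and corrected for sequencing depth.

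A connexin crosses the membrane 4 times, and 6 subunits form a hemichannel that docks with one on the next cell. In vessels these channels pass small signals such as calcium-linked messengers and electrical current along the endothelium, so that dilation or constriction spreads from cell to cell. Connexin 37 and connexin 40 are known mainly from arterial endothelium. Connexin 43 is best known in the brain from astrocytes and is also made by endothelial cells, and connexin 45 is known from vascular smooth muscle and from the early heart and vessels. Unlike most genes, connexins carry nearly all of their coding sequence in 1 exon.

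The cells were brain endothelial cells of C57BL/6 mice, adults of 12 to 20 weeks, taken by flow cytometry as live cells with CD31, an endothelial protein, and without CD45 (leukocytes) or PDGFRb (pericytes). A stroke experiment had 16 libraries in 4 groups of 4, all from mice given a 1 h occlusion of the middle cerebral artery and 1 d of reperfusion. Knockout mice were Gpr124 flox/-; ROSA-CreER+ and gave the groups cKO_ST, from the stroke hemisphere, and cKO_NS, from the other hemisphere. Control mice were Gpr124 flox/+; ROSA-CreER+ and gave Control_ST and Control_NS in the same way, so they too carried a floxed allele and the recombinase. ROSA-CreER is active in most cell types, so deletion of Gpr124, a receptor that supports Wnt signalling in brain vessels, was not limited to endothelium. A second experiment in unoperated mice had 3 libraries of Ctnnb1 lox(ex3)/+; Cdh5-CreER+ (Bcat_exon3) and 2 of Ctnnb1 +/+; Cdh5-CreER+ (Bcat_control). Cdh5-CreER acts in endothelial cells, and loss of exon 3 of Ctnnb1 is known to stabilise beta-catenin, the protein that carries the Wnt signal to the nucleus.

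The stroke libraries held an estimated 4.72 to 19.7 M reads, from a kit that counts 3' ends of polyadenylated transcripts. For the other 5 a different kit was used on total RNA, so levels were not compared between the experiments, and no depth is given for them. Endothelial identity was clear in every group, with all 9 endothelial markers at a mean of at least 1 RPKM. Gpr124 averaged 1.37 ± 0.585 RPKM in cKO_ST and 2.76 ± 1.65 RPKM in cKO_NS, against 4.99 ± 2.52 RPKM in Control_ST and 4.49 ± 2.25 RPKM in Control_NS (SD, n = 4 each). The ranges overlapped between cKO_NS and Control_NS, and a 3' read need not fall in the deleted part. Ctnnb1 averaged 221 ± 45.5 RPKM in Bcat_exon3 (n = 3) and 305 ± 6.92 RPKM in Bcat_control (n = 2), values that do not test loss of a single exon. The sex-specific RNA of cKO_NS 4 was male against a female label, and that of cKO_ST 3 was female against a male label. Values without both libraries stand beside the stroke effects of Gja1, Gjc1, Dbn1, Nov and Nedd4 in knockouts. Other results that use these libraries are mostly given only with them. By RNA the only male stroke libraries were cKO_ST 4 and cKO_NS 4, while by label the males were all in cKO_ST. A covariate for sex by label thus adjusts within cKO_ST alone, and not for sex by RNA.

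Gja1 lies on chromosome 10 at 56377330 to 56402513 on the plus strand, with 382 codons in 1 coding exon (GRCm38, GENCODE vM21). Gja4 lies on chromosome 4 at 127311421 to 127314039 on the minus strand, with 333 codons in 1 coding exon. Gja5 lies on chromosome 3 at 96904693 to 97077416 on the plus strand, with 368 codons in 2 coding exons. Codons and exons of each gene were counted on its longest coding transcript. Gjc1 lies on chromosome 11 at 102799579 to 102819700 on the minus strand, with 396 codons in 1 coding exon.

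The stretch of 250 bases before the RefSeq start (GRCm38.p6) is printed 5′ to 3′ for the 3 genes with an entry, because each stretch was searched for 2 motifs. The motifs were TGANTCA, bound by AP-1, a family of factors that includes the Fos and Jun proteins, and TCAAAG, bound by the TCF/LEF partners of beta-catenin. Capitals mark a match. The windows are chr10:56377050-56377299 (plus strand) for Gja1, chr4:127314040-127314289 (minus strand) for Gja4 and chr3:97032152-97032401 (plus strand) for Gja5, the last at a start inside the GENCODE gene.
Gja1: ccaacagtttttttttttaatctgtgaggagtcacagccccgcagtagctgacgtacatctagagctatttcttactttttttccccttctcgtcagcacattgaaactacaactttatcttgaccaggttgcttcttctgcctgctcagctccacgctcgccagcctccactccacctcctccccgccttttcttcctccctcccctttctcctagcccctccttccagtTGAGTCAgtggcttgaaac
Gja4: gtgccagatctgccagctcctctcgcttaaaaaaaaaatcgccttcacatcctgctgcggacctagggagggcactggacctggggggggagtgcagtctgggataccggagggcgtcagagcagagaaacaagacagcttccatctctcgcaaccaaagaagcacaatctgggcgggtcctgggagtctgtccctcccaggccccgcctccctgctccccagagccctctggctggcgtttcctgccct
Gja5: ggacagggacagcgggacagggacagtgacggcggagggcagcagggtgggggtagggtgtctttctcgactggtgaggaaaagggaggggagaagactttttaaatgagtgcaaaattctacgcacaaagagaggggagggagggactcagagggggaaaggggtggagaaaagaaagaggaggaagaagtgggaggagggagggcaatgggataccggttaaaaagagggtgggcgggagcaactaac
The Gja1 window held 1 AP-1 match, TGAGTCA, whose first base lay 19 bases before the start, and no TCF/LEF match. The Gja4 and Gja5 windows held neither. Both strands were read. Windows of the same length from all promoters in the table held an AP-1 match in 6.75% and a TCF/LEF match in 13.8% of 32851, and no binding was measured.

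Gja1 was far above the other 3 connexins in the stroke libraries and was higher on the stroke side in both genotypes. Its level was 1064, 1049, 989.7 and 1074 RPKM in cKO_ST and 317, 359, 304 and 323 RPKM in cKO_NS. It was 713, 783, 1162 and 841 RPKM in Control_ST and 259, 259.6, 282 and 218 RPKM in Control_NS. Every stroke-side library lay above every library of the other hemisphere. Within a genotype, such a gap in this direction held for 7.4% of genes in knockouts and 11.9% in controls. No share was computed for both genotypes together. Control_ST had the widest spread, with its replicate 3 the highest of the 16.

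The means were 1044 ± 37.6 RPKM in cKO_ST and 326 ± 23.5 RPKM in cKO_NS, 3.21 times as high, and 875 ± 199 RPKM in Control_ST and 255 ± 26.8 RPKM in Control_NS, 3.44 times as high (SD, n = 4 each). In knockouts Gja1 rose by a log2 fold change of 1.68 ± 0.14 (SE; limma on log2(RPKM + 1), Benjamini-Hochberg adjusted p = 1.53e-06). In controls it rose by 1.76 ± 0.14 on the log2 scale (limma, adjusted p = 4.56e-07). Of 9838 genes tested, 6.44% rose and 8.71% fell in knockouts, and 8.46% rose and 4.84% fell in controls. Median-of-ratios scaling turned the knockout counts from 634 risen and 857 fallen into 843 risen and 627 fallen, and quantile normalization gave 744 and 663. By size of rise Gja1 was the 138th gene in knockouts and the 152nd in controls, and by p it was the 5th and the 9th. By mean level over all 16 stroke libraries it stood 72nd, a rank to which the high stroke-side values themselves add. Without cKO_NS 4 and cKO_ST 3 the rise in knockouts was 1.70 ± 0.17 on the log2 scale (limma, adjusted p = 9.55e-06).

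Between genotypes Gja1 was somewhat higher in knockouts, and no difference passed the threshold. In the non-stroke hemisphere the ranges of cKO_NS and Control_NS did not overlap, which held in this direction for 6.66% of genes. The log2 fold change there was 0.36 (95% interval 0.06 to 0.66; limma, adjusted p = 0.268), where the median of all genes was itself 0.11. Median-of-ratios scaling brought that median to 0.00 and the Gja1 difference to 0.22. In the stroke hemisphere the ranges of cKO_ST and Control_ST overlapped, with a log2 fold change of 0.28 (95% interval -0.02 to 0.58; limma, adjusted p = 0.994). The stroke effect itself did not differ detectably between genotypes, with an interaction of -0.08 (95% interval -0.50 to 0.35; limma, adjusted p = 0.961), a value above 0 under either rescaling (0.094 and 0.024).

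Few genes were called between genotypes at all. In the non-stroke hemisphere 0.224% rose and 0.0915% fell, and median-of-ratios scaling turned these 22 and 9 genes into 14 and 16. In the stroke hemisphere and for the interaction limma called 0% of genes, with 476 and 691 genes at an unadjusted p under 0.05.

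**Figure D1:**
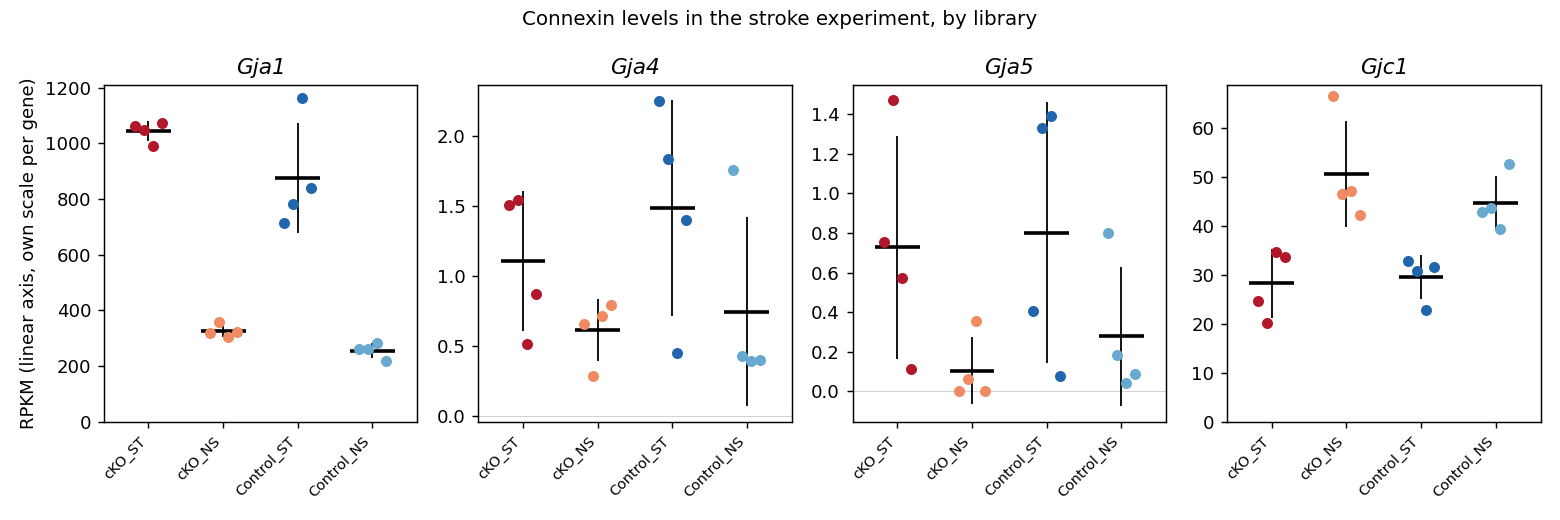
RPKM of the 4 connexins in each of the 16 stroke libraries, with 1 panel and its own linear axis per gene. Points are libraries in replicate order, bars the group mean and vertical lines 1 SD (n = 4). Gja1 is at 713 RPKM or more in each stroke-side library and at 359 RPKM or less in every other, Gjc1 runs the other way, and Gja4 and Gja5 groups overlap.

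Gjc1, the connexin 45 gene, moved against Gja1 and was lower on the stroke side. Its level was 24.6, 20.2, 34.7 and 33.7 RPKM in cKO_ST and 66.6, 46.6, 47.2 and 42.2 RPKM in cKO_NS. It was 32.9, 30.8, 22.9 and 31.7 RPKM in Control_ST and 43.0, 43.7, 39.5 and 52.6 RPKM in Control_NS. Both stroke-side groups lay wholly below both groups of the other hemisphere.

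In knockouts Gjc1 averaged 28.3 ± 7.04 RPKM in cKO_ST and 50.7 ± 10.8 RPKM in cKO_NS and fell by 0.83 ± 0.21 on the log2 scale (limma, adjusted p = 0.0104), where the median of all genes was -0.13. Without cKO_NS 4 and cKO_ST 3 the log2 fold change in knockouts was -1.01 (limma, adjusted p = 0.00686). In controls it averaged 29.6 ± 4.53 RPKM in Control_ST and 44.7 ± 5.61 RPKM in Control_NS, a log2 fold change of -0.59 (95% interval -1.02 to -0.15). That value missed the threshold (limma, adjusted p = 0.0681), although the groups did not overlap, as held for 8.7% of genes in this direction in controls and 11.4% in knockouts. A stricter filter, quantile normalization and sex by label as a covariate each took it past the threshold. The filter and the covariate did so with the log2 fold change itself unchanged. The 2 stroke effects on Gjc1 were not shown to differ, with an interaction of -0.25 (95% interval -0.86 to 0.37; limma, adjusted p = 0.895). Genotype differences were 0.16 in the non-stroke hemisphere (95% interval -0.27 to 0.60) and -0.08 in the stroke hemisphere (95% interval -0.51 to 0.35), neither past the threshold (limma, adjusted p = 0.762 and 0.998).

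Gja4 and Gja5, the connexins of arterial endothelium, were near the limit of detection and fell under the minimum mean of 1 RPKM, so they were not tested. Gja4 was at 1.51, 1.54, 0.520 and 0.875 RPKM in cKO_ST and 0.659, 0.292, 0.718 and 0.798 RPKM in cKO_NS. It was at 2.25, 1.84, 0.453 and 1.41 RPKM in Control_ST and 1.76, 0.428, 0.399 and 0.404 RPKM in Control_NS. The groups overlapped throughout, although both stroke-side medians were higher than the median of their other hemisphere.

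These values rest on few reads, recovered as whole numbers to within 0.08 of a read from the steps of the RPKM values. Gja4 had 35, 30, 13 and 29 reads in cKO_ST, 8, 5, 14 and 10 in cKO_NS, 73, 30, 5 and 19 in Control_ST and 14, 5, 5 and 10 in Control_NS. A single library with 14 reads, Control_NS 1, thus set the high value of its group, at the lowest depth of the stroke libraries. Read counts also follow depth, estimated at 11.6 to 19.7 M in cKO_ST and 7.22 to 11.6 M in cKO_NS. Depth was 6.55 to 19.3 M in Control_ST and 4.72 to 14.6 M in Control_NS. With no filter on low values the Gja4 stroke difference was 0.36 ± 0.29 on the log2 scale in knockouts and 0.51 ± 0.29 in controls (SE; limma, adjusted p = 0.523 and 0.397).

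Gja5 was lower still. It was at 0.754, 1.47, 0.572 and 0.112 RPKM in cKO_ST and 0, 0.0620, 0.354 and 0 RPKM in cKO_NS. It was at 0.408, 1.33, 1.39 and 0.0784 RPKM in Control_ST and 0.800, 0.182, 0.0423 and 0.0865 RPKM in Control_NS. Libraries of a group differed widely, 2 libraries of cKO_NS were at 0, and the groups overlapped in both genotypes.

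In reads, Gja5 had 33, 54, 27 and 7 in cKO_ST, 0, 2, 13 and 0 in cKO_NS, 25, 41, 29 and 2 in Control_ST and 12, 4, 1 and 4 in Control_NS. A count of 0 allows up to 3 reads, or 0.131 RPKM in cKO_NS 1 and 0.127 RPKM in cKO_NS 4, for counting error only. With no filter the stroke difference of Gja5 was 0.60 ± 0.28 on the log2 scale in knockouts and 0.45 ± 0.28 in controls (SE; limma, adjusted p = 0.257 and 0.456). Adding 1 RPKM before the logarithm understates changes at such levels.

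The order of the groups therefore differed by gene. Gja1 was highest in cKO_ST, then Control_ST, cKO_NS and Control_NS, and only the first pair overlapped. Gjc1 was highest in cKO_NS, then Control_NS, Control_ST and cKO_ST, and only the middle pair did not overlap. Gja4 and Gja5 were highest in Control_ST, then cKO_ST, Control_NS and cKO_NS, with every neighbouring pair overlapping. The last pair stood in this order only with Control_NS 1. Without that library the Control_NS mean was 0.410 RPKM for Gja4, against 0.617 RPKM in cKO_NS, and 0.103 RPKM for Gja5, against 0.104 RPKM in cKO_NS. For Gja5 the first pair changed places without Control_ST 2 or 3 (0.626 and 0.606 RPKM in Control_ST, against 0.727 RPKM in cKO_ST) or without cKO_ST 4 (0.933 RPKM in cKO_ST, against 0.803 RPKM in Control_ST).

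The stroke side thus differed in the makeup of connexin RNA as well as in its amount. The 4 genes summed to 1074 ± 35.6 RPKM in cKO_ST, 377 ± 23.4 RPKM in cKO_NS, 907 ± 194 RPKM in Control_ST and 300.3 ± 21.3 RPKM in Control_NS. Gja1 made up 97.2 ± 0.60% of that sum in cKO_ST, 86.4 ± 2.7% in cKO_NS, 96.3 ± 1.1% in Control_ST and 84.6 ± 3.0% in Control_NS. Gjc1 made up 2.64 ± 0.69% in cKO_ST, 13.4 ± 2.7% in cKO_NS, 3.43 ± 1.1% in Control_ST and 15.0 ± 3.1% in Control_NS. Gja4 and Gja5 each averaged under 0.3% in every group. A 3' kit counts ends and not length, so shares between genes depend on gene lengths that the sources used here do not give. Taking the longest GENCODE transcripts as the lengths, Gja1 had about 4756 to 82090 reads per library and Gjc1 about 512 to 2615.

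**Figure D2:**
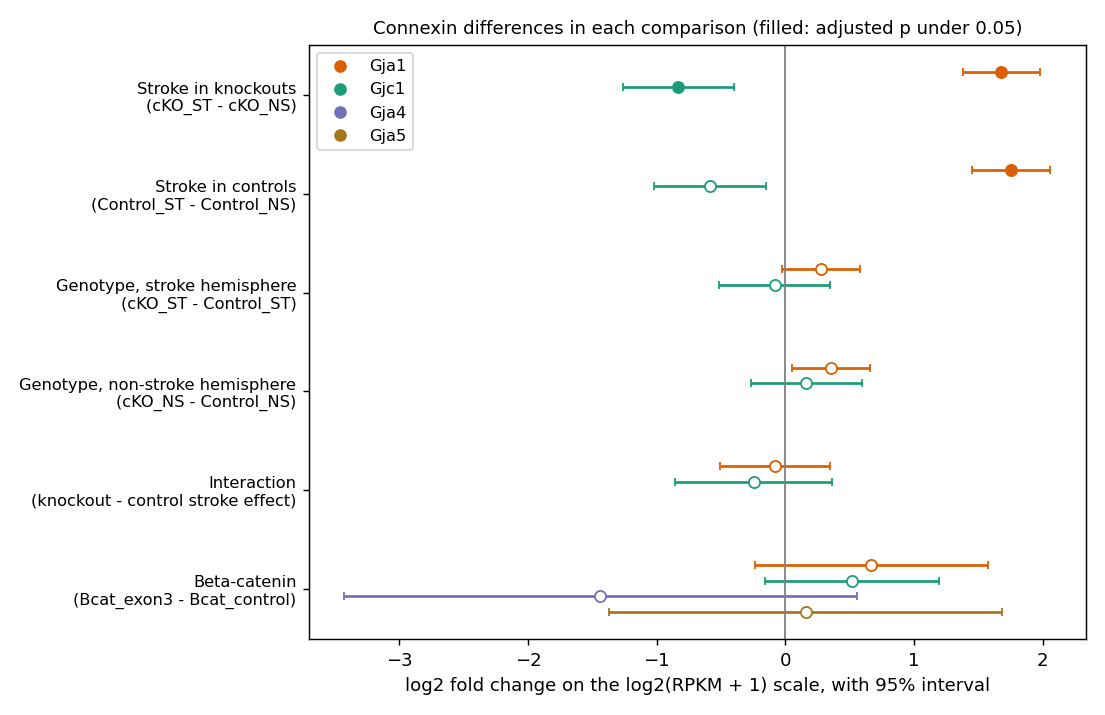
Log2 fold change of each tested connexin with its 95% interval, on the log2(RPKM + 1) scale, for the 6 comparisons; filled points passed an adjusted p of 0.05. Gja1 is near 1.7 in both stroke comparisons, Gjc1 is below 0 in both and filled only in knockouts, and the genotype, interaction and beta-catenin points are all open. Gja4 and Gja5 were tested only in the beta-catenin experiment.

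Other cells of the brain also make these connexins, and their markers were read beside each gene. In bulk RNA, fewer cells of a type and less RNA per cell cannot be told apart. The summed level of 7 astrocyte genes was 0.212 to 2.94 RPKM in cKO_ST, 1.73 to 20.3 RPKM in cKO_NS, 1.39 to 10.4 RPKM in Control_ST and 1.28 to 8.68 RPKM in Control_NS. Gfap, the astrocyte filament gene, was at most 0.528 RPKM, and Gjb6, the astrocyte connexin 30 gene, was at 0 in 15 of the 16 libraries and at 0.131 RPKM in Control_NS 2. The Gja1 level was more than 10 times the astrocyte sum in every stroke library, and the part of astrocyte RNA in it was not tested. The median astrocyte sum was 1.65 RPKM in cKO_ST against 3.07 RPKM in cKO_NS, and 2.90 RPKM in Control_ST against 4.50 RPKM in Control_NS. The summed level of 5 fibroblast genes was at most 2.08 RPKM, with Col1a1 at 0 throughout. Of 5 neuron genes only Snap25 was tested, and it fell in knockouts (log2 fold change -1.90; limma, adjusted p = 0.0179). Of 6 microglia and leukocyte genes 2 were tested, and P2ry12, a microglial receptor, fell in controls (log2 fold change -1.56; limma, adjusted p = 0.0452).

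The endothelial markers themselves did not share a direction. Of the 9, 2 rose and 2 fell in knockouts, and 3 rose and 1 fell in controls. Over all genes tested the shares were 6.44% risen and 8.71% fallen in knockouts, and 8.46% risen and 4.84% fallen in controls. Cdh5, the cadherin of endothelial junctions, rose by 0.75 on the log2 scale in knockouts and 0.72 in controls, and Emcn, an endothelial sialomucin, by 0.80 and 0.69 (limma, adjusted p 0.00166 to 0.00532). Tek, the angiopoietin receptor, had log2 fold changes of -0.80 in knockouts and -0.49 in controls (limma, adjusted p = 0.00212 and 0.0469). Pecam1, which encodes CD31, rose in controls (0.45; limma, adjusted p = 0.0320) and was at 0.32 in knockouts (adjusted p = 0.121). Slc2a1, the glucose transporter of the blood-brain barrier, fell in knockouts (-1.13; limma, adjusted p = 0.00410) and was at -0.68 in controls (adjusted p = 0.0713).

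Mural cells, the smooth muscle and pericytes around the endothelium, are a known site of Gjc1 and Gja4. Of 12 mural genes, 3 or 4 averaged at least 1 RPKM in each stroke group, most of it Rgs5, and Cnn1 was at 0 in all groups but Control_NS. The mural sum was 15.6 to 103 RPKM in cKO_ST and 23.5 to 33.8 RPKM in cKO_NS, which overlapped. It was 12.6 to 49.3 RPKM in Control_ST and 50.7 to 70.7 RPKM in Control_NS, lower on the stroke side as Gjc1 was. None of the 4 mural genes tested passed the threshold in either stroke comparison, and the part of mural RNA in the Gjc1 levels was not tested.

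**Figure D3:**
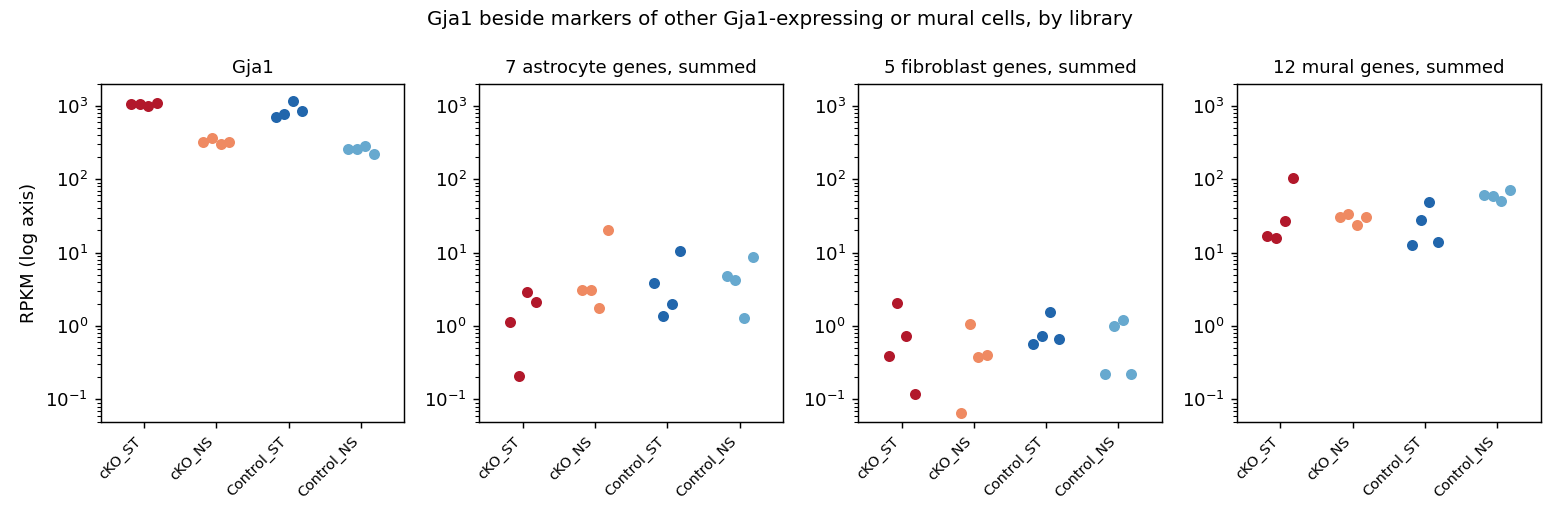
Gja1 and the summed RPKM of 7 astrocyte, 5 fibroblast and 12 mural genes in each of the 16 stroke libraries, on a shared log axis. Points are libraries in replicate order. Gja1 runs from 218 to 1162 RPKM, against at most 20.3 RPKM for the astrocyte and 2.08 RPKM for the fibroblast genes, and the mural sums are lower in Control_ST than in Control_NS.

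The rest of the connexin family was nearly silent in these cells. Of 16 other connexin genes, only Gjc3, the connexin 29 gene of myelin-forming glia, reached a mean of 1 RPKM. It was at 10.0, 0.960, 1.25 and 23.9 RPKM in cKO_ST, 35.7, 4.05, 1.50 and 17.3 RPKM in cKO_NS, 21.6, 2.54, 1.39 and 13.0 RPKM in Control_ST and 45.1, 9.90, 13.6 and 23.0 RPKM in Control_NS. In each group the same 2 replicates, 1 and 4, were the highest for Gjc3 and for the sum of 5 oligodendrocyte genes. That sum was 15.7 to 262 RPKM in cKO_ST, 40.8 to 498 RPKM in cKO_NS, 27.5 to 353 RPKM in Control_ST and 178 to 969 RPKM in Control_NS. Its part in the Gjc3 level was not tested, and Gjc3 passed the threshold in no comparison. None of the 3 pannexins, which form related membrane channels, reached a mean of 1 RPKM. The highest, Panx1, averaged 0.256 RPKM in cKO_ST, 0.527 RPKM in cKO_NS, 0.0687 RPKM in Control_ST and 0.120 RPKM in Control_NS.

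Of 14 genes whose proteins bind, anchor or modify connexins 11 were tested, with 1 risen and 3 fallen in knockouts (median log2 fold change -0.25, against -0.13 over all genes) and 1 risen and 1 fallen in controls (median -0.30, against 0.01). Over all genes tested, 6.44% rose and 8.71% fell in knockouts, and 8.46% rose and 4.84% fell in controls. The 3 fallen in knockouts became 1 under either rescaling, with sex by label as a covariate, without both libraries of mismatched sex, and without cKO_ST 1 or 2 or cKO_NS 2, 3 or 4. In controls 2 fell without Control_ST 3, and 2 rose without cKO_ST 4 or Control_ST 1. Tjp1, whose product ZO-1 is the scaffold at the edge of connexin 43 plaques, was at 127, 138, 137 and 109 RPKM in cKO_ST and 274, 264, 234 and 233 RPKM in cKO_NS. It was at 143, 168, 146 and 133 RPKM in Control_ST and 266, 281, 322 and 329 RPKM in Control_NS. No stroke-side library reached any library of the other hemisphere, and Tjp1 fell by 0.97 ± 0.13 on the log2 scale in knockouts (SE; limma, adjusted p = 1.07e-04) and fell by 1.02 ± 0.13 in controls (adjusted p = 6.37e-05). It kept this call under every alternative run.

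Dbn1, which encodes the actin-binding protein drebrin, another partner of connexin 43, was at 10.2, 6.25, 7.51 and 0.648 RPKM in cKO_ST and 0.997, 2.16, 1.00 and 0 RPKM in cKO_NS. It was at 3.42, 2.91, 3.95 and 6.48 RPKM in Control_ST and 0.0693, 0.330, 0.0439 and 0 RPKM in Control_NS. It rose by 2.19 ± 0.48 on the log2 scale in controls (SE; limma, adjusted p = 0.00491). In knockouts it rose by 1.62 ± 0.48 (adjusted p = 0.0288), a call lost when cKO_NS 1, 3 or 4 or cKO_ST 1, 2 or 3 was left out (adjusted p up to 0.102, without cKO_ST 1). The call was also lost with no filter (adjusted p = 0.0749), with a pseudocount of 0.1 (adjusted p = 0.0605) and without cKO_NS 4 and cKO_ST 3 together (adjusted p = 0.173).

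Nov, which encodes the secreted matricellular protein CCN3, a known binder of connexin 43, averaged 3.70 ± 1.69 RPKM in cKO_ST and 12.5 ± 3.36 RPKM in cKO_NS. Nedd4, which encodes a ubiquitin ligase that acts on connexin 43, averaged 22.6 ± 3.21 RPKM in cKO_ST and 34.0 ± 4.11 RPKM in cKO_NS. Both fell in knockouts, by log2 fold changes of -1.57 and -0.57 (limma, adjusted p = 0.0319 and 0.0447). Both calls were lost under either rescaling and without both libraries of mismatched sex (adjusted p = 0.0572 and 0.164), and with sex by label as a covariate (adjusted p = 0.140 and 0.184). That of Nov was also lost with no filter (adjusted p = 0.0811) and without cKO_NS 2, 3 or 4 or cKO_ST 1, 2 or 4 (adjusted p up to 0.0973, without cKO_ST 4). That of Nedd4 was lost without cKO_NS 2, 3 or 4, cKO_ST 1, 2 or 3, Control_NS 1, 2 or 4 or Control_ST 2 or 3 (adjusted p up to 0.116, without cKO_NS 2). In controls the log2 fold changes were -1.19 for Nov and -0.49 for Nedd4, and neither passed (limma, adjusted p = 0.108 and 0.0889).

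Since Gja4 and Gja5 mark arteries, 10 further arterial genes were read, and all were tested. None rose, while 2 fell in knockouts (median log2 fold change -0.56, against -0.13 over all genes) and 3 fell in controls (median -0.86, against 0.01), where 8.71% of all genes tested fell in knockouts and 4.84% in controls. With the replicate number as a block, which the data pair in knockouts, 4 fell there, as did 4 without cKO_NS 1. Sox17, a transcription factor of arterial fate, averaged 21.0 ± 4.62 RPKM in cKO_ST and 52.8 ± 8.23 RPKM in cKO_NS, and 31.3 ± 8.27 RPKM in Control_ST and 61.5 ± 4.83 RPKM in Control_NS. It fell by 1.30 ± 0.21 on the log2 scale in knockouts and by 0.99 ± 0.21 in controls (SE; limma, adjusted p = 3.34e-04 and 0.00327). Gkn3, a marker of brain arteries, fell in controls, with 3.09 ± 3.63 RPKM in Control_ST against 20.0 ± 11.4 RPKM in Control_NS (log2 fold change -2.60; limma, adjusted p = 0.00740). In knockouts it was at 0.586 ± 0.507 RPKM in cKO_ST and 4.43 ± 2.89 RPKM in cKO_NS, a log2 fold change of -1.55 that did not pass (limma, adjusted p = 0.0925). Hey1, a Notch target, fell in controls to 17.6 ± 8.42 RPKM in Control_ST, against 50.5 ± 14.4 RPKM in Control_NS (log2 fold change -1.58; limma, adjusted p = 0.00794). In knockouts it was at 25.6 ± 9.07 RPKM in cKO_ST and 55.2 ± 16.9 RPKM in cKO_NS, with a log2 fold change of -1.08 (limma, adjusted p = 0.0583). Cytl1, a small secreted protein, fell in knockouts to 0.849 ± 0.550 RPKM in cKO_ST, against 27.7 ± 39.7 RPKM in cKO_NS (log2 fold change -3.11; limma, adjusted p = 0.00434). In cKO_NS 4 it was at 87.3 RPKM, and without that library the log2 fold change was -2.28 (limma, adjusted p = 0.00766). In controls Cytl1 was at 0.626 to 12.2 RPKM in Control_ST and 6.74 to 10.8 RPKM in Control_NS, with a log2 fold change of -1.44 (limma, adjusted p = 0.176). The difference between genotypes in the stroke effect passed for none of Gkn3, Hey1 and Cytl1 (limma interaction, adjusted p 0.761 to 0.876). The arterial genes that passed were thus lower on the stroke side, where the medians of Gja4 and Gja5 were higher in values too low to test. In controls the means of the arterial genes that did not pass went both ways. In knockouts the means of those that did not pass were lower on the stroke side, some only slightly.

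The genes most like Gja1 and Gjc1 across the 16 libraries were found among 5552 genes with a mean of at least 5 RPKM, by the Pearson correlation of log2(RPKM + 1). These libraries share the same groups, so the correlations describe a pattern and carry no test. Gja1 was most like Fkbp1a (r = 0.990), Emp1 (0.985) and Msn (0.983), which encode an immunophilin, a membrane protein and the actin linker moesin. Among the 3 genes most like Gjc1 were Rictor (r = 0.931) and the long noncoding RNA Fendrr (0.928). After group means were taken away, the closest to Gja1 were Ifrd1 (0.801), Bccip (0.774) and Klf6 (0.766), and the closest to Gjc1 were Cmas (0.887), Fendrr (0.882) and Itm2b (0.881). Fendrr was among the 3 nearest to Gjc1 by both measures, and the lists for Gja1 had no gene in common.

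In the beta-catenin experiment the order of the connexins was another one, with Gjc1 the most abundant in all 5 libraries. Its level was 83.4, 121 and 63.9 RPKM in Bcat_exon3 and 63.3 and 56.8 RPKM in Bcat_control. The groups did not overlap, as held for 8.66% of 11252 genes in this direction, although Bcat_exon3 3 and Bcat_control 1 were close. The means were 89.3 ± 28.8 RPKM in Bcat_exon3 and 60.1 ± 4.60 RPKM in Bcat_control, with a log2 fold change of 0.52 (95% interval -0.16 to 1.19; limma, adjusted p = 0.966).

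Gja1 was at 39.3, 33.4 and 19.3 RPKM in Bcat_exon3 and 24.4 and 13.4 RPKM in Bcat_control. The groups overlapped, since Bcat_exon3 3 lay below Bcat_control 1. The log2 fold change was 0.67 (95% interval -0.24 to 1.57; limma, adjusted p = 0.966), an interval that spans 0.

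Gja4 and Gja5 passed the minimum mean of 1 RPKM here and varied widely between libraries. Gja4 was at 0.612, 0.484 and 4.74 RPKM in Bcat_exon3 and 1.97 and 13.1 RPKM in Bcat_control, with a log2 fold change of -1.44 (95% interval -3.43 to 0.55; limma, adjusted p = 0.966). Gja5 was at 1.84, 6.88 and 5.13 RPKM in Bcat_exon3 and 1.90 and 6.37 RPKM in Bcat_control, with a log2 fold change of 0.16 (95% interval -1.37 to 1.69; limma, adjusted p = 0.992). The groups overlapped for both genes, and the sign for Gja5 turned without Bcat_control 1 (-0.51) or without Bcat_exon3 2 (-0.15). No gene was called in this comparison, 0% of those tested by limma, with 590 at an unadjusted p under 0.05.

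Gjc1 made up 70.0 ± 4.2% of the summed connexin level in Bcat_exon3 and 66.2 ± 4.1% in Bcat_control, and Gja1 24.3 ± 6.2% and 20.8 ± 8.3% in the same groups. Gja1 and Gjc1 stood in the opposite order in the stroke experiment, where the kit, the surgery and the genotypes all differed. Sex differed too, since by RNA all beta-catenin libraries were male and all stroke libraries but cKO_ST 4 and cKO_NS 4 were female. These differences cannot be told apart. Mural genes summed to 35.5, 73.0 and 112 RPKM in Bcat_exon3 and 35.8 and 36.1 RPKM in Bcat_control. Acta2, the smooth-muscle actin gene, averaged 16.6 ± 15.7 RPKM in Bcat_exon3 and 2.77 ± 2.42 RPKM in Bcat_control. The library with the highest mural sum, Bcat_exon3 3, had the lowest Gjc1 and Gja1 and the highest Gja4 of its group, and the part of mural RNA in these levels was not tested. Astrocyte genes summed to 1.74 to 12.0 RPKM in Bcat_exon3 and 1.55 to 2.54 RPKM in Bcat_control, and Bcat_exon3 3 had the highest of these sums. Of the other connexins only Gjc3 was tested, at 0.171, 20.4 and 0.493 RPKM in Bcat_exon3 and 0.473 and 0.696 RPKM in Bcat_control. Of the connexin partners 10 were tested and none was called, with Tjp1 at 383 ± 31.4 RPKM in Bcat_exon3 and 354 ± 32.3 RPKM in Bcat_control.

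**Figure D4:**
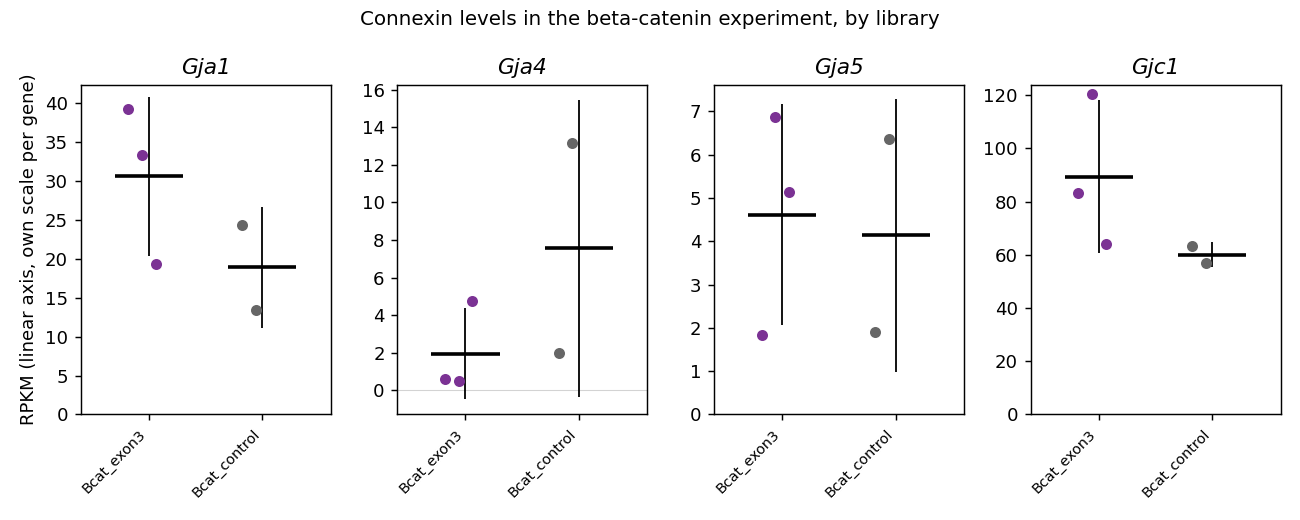
RPKM of the 4 connexins in the 5 libraries of the beta-catenin experiment, with 1 panel and its own linear axis per gene. Points are libraries in replicate order, bars the group mean and vertical lines 1 SD (n = 3 and n = 2). Gjc1 is the most abundant in every library and its groups do not overlap, while the groups of the other 3 genes do.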

How the data were processed

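The authors deposited RPKM values per library; edgeR and the mm10 build are named in the submitters' processing notes. The aligner, annotation and gene lengths were not given in the sources used here. Of 24260 rows, 54 were dropped because they shared 23 names, and 8 columns of no described sample were not used. The members, gene lists and rules were chosen with earlier results of these data known. Named genes were the 4 connexins, members past the threshold of the lists of related genes and cell markers (of a related list with none, its most abundant gene), the 3 genes most correlated with a tested connexin by each of 2 measures, and Gpr124 and Ctnnb1. A gene that this rule names is not reported here.

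Comparisons used limma 3.58.1 (R 4.3.3) on log2(RPKM + 1) for genes with a mean of at least 1 RPKM, with a mean-variance trend, two-sided tests and Benjamini-Hochberg adjustment at 0.05. Xist and 4 Y-linked genes were left out. The 16 stroke libraries were fitted together with a mean per group, the other 5 separately, and the code was tested on simulated data. Stroke depths came from ratios of low RPKM values between libraries, on a scale set with GENCODE lengths. Whether libraries stem from separate mice is not stated in the labels, so p-values reflect the spread among samples, which may be technical. Same-numbered knockout libraries deviated from their group means together, with correlations of 0.104 to 0.218 across genes, so by the data their numbers paired them. Each of these was above every pair of unlike numbers in knockouts, at most 0.0592. In controls this held for numbers 1, 2 and 3 (0.0722 to 0.130) and not for number 4. That pair was at 0.0117, against at most 0.0336 for unlike numbers, so pairing of controls was not settled. The main fits used no pairing.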

Additional observations from a re-analysis of the deposited data

Results flagged for a closer look

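Gja4 in Control_NS 1 stood apart from the other 3 libraries of its group, at 1.76 RPKM against 0.399 to 0.428 RPKM. It was the only value so far from its neighbours among the 16 combinations of the 4 connexins and the 4 stroke groups, and chance gives such a gap in about 1 of 20 groups. The value rests on 14 reads at an estimated depth of 4.72 M reads. The other libraries had 5, 5 and 10 reads at 6.93, 7.45 and 14.6 M. Control_NS 1 also had the highest Gja5 of its group, at 0.800 RPKM, and the highest sum of oligodendrocyte genes of all libraries, at 969 RPKM, and their part in the Gja4 value was not tested. Without Control_NS 1 the Gja4 stroke difference in controls was 0.76 on the log2 scale, against 0.51 with it.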

How the results depend on the processing

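Over the tested connexins, 291 of 300 alternative values kept their direction and their side of the threshold, 3 passed it and 6 changed sign. Many of these values could hardly change, so the count overstates how firm the results are. Leaving out a library of neither group compared left the value as it was and altered only the shared spread. In comparisons where no gene was called, a value also had little room to pass the threshold. The rise of Gja1 kept its call throughout, with log2 fold changes of 1.55 to 1.82 in knockouts and 1.53 to 1.85 in controls. The fall of Gjc1 in knockouts did too (adjusted p 0.00424 to 0.0439). In controls Gjc1 passed with a filter at 5 RPKM (-0.59), quantile normalization (-0.64) and sex by label as a covariate (-0.59). The filter and the covariate left the value itself unchanged, since a filter does not rescale and no control library is labelled male. Both altered the estimated spread, and the filter also the number of genes tested. Why each setting passed was not tested. The Gja1 interaction changed sign under median-of-ratios scaling (0.094) and quantile normalization (0.024). Leaving out single libraries gave -0.17 to 0.068 for it (above 0 without Control_ST 3), -0.20 to 0.062 for Gjc1 between genotypes in the stroke hemisphere (above 0 without cKO_ST 2) and -0.51 to 0.83 for the Gja5 difference with beta-catenin. Where a single Bcat_control library remained, it was assumed to vary like the other group. Genes called between genotypes in the non-stroke hemisphere numbered 31, against 19 with no filter, 84 with a filter at 5 RPKM, 18 with the sex covariate and 1 to 54 without single libraries (1 without Control_NS 4). In the stroke hemisphere they numbered 0 to 8 without single libraries (8 without Control_ST 3). With the sex covariate 993 genes were called for stroke in knockouts, against 1491. That covariate follows the labels, which name males in cKO_ST alone, so these counts are not adjusted for sex by RNA. A replicate block changed no call of a connexin, with an adjusted p for Gjc1 of 0.0183 in knockouts and 0.0811 in controls, and in the beta-catenin comparison the connexins' adjusted p was 0.859 to 0.997. Of the values not tested, a pseudocount of 0.1 moved the Gja5 stroke difference to 2.01 in knockouts and 1.21 in controls, and that of Gja4 in knockouts to 0.72. Gja4 and Gja5 had at most 73 reads in a stroke library.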
